A study of Homo sapiens with 8 samples.

Results

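Genes whose counted transcript covers more than 200 kb of the genome were followed in newly made RNA of U2OS, a human osteosarcoma cell line. A gene was taken by its symbol on chromosomes 1 to 22 when the median span of its counted transcript over the 8 libraries was above 200 kb, and symbols starting with ZNF or COL were left out. The rule uses no measured level directly, but the counted transcript was chosen in each library, so membership is not independent of the libraries. Of the members, 698 had more than 1 counted transcript and 136 were under the threshold in at least 1 library. The rule found 1102 of the 19414 coding genes listed, or 5.68%. The RNA was measured by TT-seq, in which cells build the base analogue 4-thiouridine into RNA made during a short pulse, so that the reads come from recent transcription. The 4 groups had 2 libraries each and carried the labels WT, MYC (MYC overexpression), Zab and MYC_Zab (Zab with MYC overexpression). All were of the same cell line, and the construct behind Zab is not given in the labels. In the field, Zαβ commonly denotes the Zα and Zβ domains of ADAR, an enzyme that edits RNA, of which Zα binds the left-handed Z form of nucleic acids. The title of the series names MYC, the FACT histone chaperone and Z-DNA. Each of the 3 altered groups can be set against WT and against the others, and so newly made RNA was compared with and without MYC overexpression, Zab or both, as labelled. No label says that the libraries of a group came from separate cultures, so p-values rest on the spread between the libraries alone, and that spread may be technical.

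A long gene is mostly intron. RNA polymerase II needs far longer to cross it than to cross a compact gene, so the 3' exons of a long gene appear in newly made RNA well after its start. Very long genes include cell adhesion molecules, axon guidance receptors, synaptic proteins, cytoskeletal linkers and developmental transcription factors, and several of the longest lie in common fragile sites, regions that break when DNA replication is slowed. In the tested members the counted exons had a median length of 6.36 kb, against 3.37 kb in the other genes tested, and they made up a median of 1.97% of the span, against 12.7%.

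Library facts that touch the members come first. Within a group, the 2 libraries were as far apart as counting noise puts them when reads come in pairs, with a chi-square per gene of 1.99 to 2.05 over all genes of at least 20 reads and 1.83 to 2.01 over the members among them. Separate samples and 1 preparation sequenced again cannot be told apart from this in any of the 4 groups. Counts are also given below with the WT and the MYC_Zab libraries taken as 1 sample per group, where that moves them by over 1.5 times. That fit takes its spread from the MYC and Zab pairs, which may be technical too, so it does not guard against this. Recovered coding reads ranged from 1839960 to 4072059 per library, of which 52209 to 143113 lay in the members. The libraries labelled Zab gave 6.55 coding reads per 100 tags, against 13.1 to 13.7 in the other groups. The genes that check the labels went against them. MYC stood at 764 CPM (counts scaled to the same total in each library) in the libraries labelled WT, 762 in MYC_Zab, 6592 in MYC and 966 in Zab, so the libraries labelled MYC_Zab did not show the overexpression their label states. ADAR stood at 33906 CPM in WT, 32311 in MYC_Zab, 455 in MYC and 543 in Zab. The groups are therefore called by their labels only, and the part of these differences in the results below was not tested. Of the markers of this mesenchymal line, VIM was at 1817 to 3067 CPM over the group means and TWIST1 at 0 in all libraries. Line markers moved with the MYC group, and their part in the results was not tested: CD44 was at 135 CPM in MYC and 395 to 461 in the other groups, SPARC at 334 and 526 to 564, CDH2 at 27.6 and 54.2 to 68.4, and RUNX2 at 31.4 and 3.41 to 11.5. Of the markers of other cell types, MAP2 was at 2.53 to 5.63 CPM, EPCAM at most 4.29 and CDH1 at most 2.11, and each of the rest at most 1.02, with CD3E at 0. In bulk samples, fewer cells of a type and less RNA per cell cannot be told apart.

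The promoters of 8 long genes are shown, since these genes were among those with the largest differences between the groups and had a single listed start. Each line holds the 250 bases before the start, read 5' to 3' on the gene's strand, from RefSeq on GRCh38.p14. Capitals mark 2 of the 3 motifs searched on both strands: CACGTG, the E-box core that MYC with MAX recognises, and CGCGCG, an alternating purine and pyrimidine run of the kind that can adopt the Z form. The third, CACACACA or TGTGTGTG, occurred in none of the 8. PPM1H (chr12:62935151-62935400, minus strand) and TGFBR3 (chr1:91886152-91886401, minus strand) were among the largest rises in the libraries labelled MYC, and PLXNA2 (chr1:208244385-208244634, minus strand) and TENM4 (chr11:79441031-79441280, minus strand) among the largest falls there. XYLT1 (chr16:17470961-17471210, minus strand) and SIL1 (chr5:139198369-139198618, minus strand) were among the largest rises in the libraries labelled Zab, and NCKAP5 (chr2:133568464-133568713, minus strand) and RBMS3 (chr3:29280821-29281070, plus strand) among the largest falls there.
PPM1H: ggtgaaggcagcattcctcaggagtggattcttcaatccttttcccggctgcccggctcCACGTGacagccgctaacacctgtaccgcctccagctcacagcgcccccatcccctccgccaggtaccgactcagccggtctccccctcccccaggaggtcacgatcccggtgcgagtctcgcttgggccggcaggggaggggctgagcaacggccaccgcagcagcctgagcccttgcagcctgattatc
TGFBR3: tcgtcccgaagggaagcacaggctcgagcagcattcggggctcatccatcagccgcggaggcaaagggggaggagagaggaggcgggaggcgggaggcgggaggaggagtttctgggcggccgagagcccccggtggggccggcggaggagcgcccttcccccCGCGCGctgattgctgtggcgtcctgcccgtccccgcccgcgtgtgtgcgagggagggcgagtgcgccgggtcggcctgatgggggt
PLXNA2: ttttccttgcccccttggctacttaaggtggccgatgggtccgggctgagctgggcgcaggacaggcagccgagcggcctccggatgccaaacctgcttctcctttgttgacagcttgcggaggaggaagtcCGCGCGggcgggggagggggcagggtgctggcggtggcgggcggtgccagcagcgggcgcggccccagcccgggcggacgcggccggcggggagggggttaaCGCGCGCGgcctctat
TENM4: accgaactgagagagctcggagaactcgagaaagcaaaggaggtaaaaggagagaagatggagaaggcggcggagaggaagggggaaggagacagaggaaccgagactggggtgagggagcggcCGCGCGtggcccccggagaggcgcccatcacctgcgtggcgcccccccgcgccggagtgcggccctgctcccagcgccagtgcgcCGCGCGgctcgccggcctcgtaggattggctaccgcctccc
XYLT1: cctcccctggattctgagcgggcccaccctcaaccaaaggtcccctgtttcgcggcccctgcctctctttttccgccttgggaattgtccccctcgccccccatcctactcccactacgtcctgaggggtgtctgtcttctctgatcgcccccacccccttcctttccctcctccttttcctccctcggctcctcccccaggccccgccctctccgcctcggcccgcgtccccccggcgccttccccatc
SIL1: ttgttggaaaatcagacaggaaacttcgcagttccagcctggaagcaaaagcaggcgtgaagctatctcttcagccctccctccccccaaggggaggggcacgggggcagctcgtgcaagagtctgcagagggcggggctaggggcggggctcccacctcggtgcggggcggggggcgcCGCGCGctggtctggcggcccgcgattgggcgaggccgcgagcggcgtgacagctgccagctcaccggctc
NCKAP5: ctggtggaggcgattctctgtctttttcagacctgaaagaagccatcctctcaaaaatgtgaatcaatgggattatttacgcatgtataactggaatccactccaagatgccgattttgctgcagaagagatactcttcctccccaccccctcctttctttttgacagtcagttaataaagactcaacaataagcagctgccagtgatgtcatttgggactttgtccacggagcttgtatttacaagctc
RBMS3: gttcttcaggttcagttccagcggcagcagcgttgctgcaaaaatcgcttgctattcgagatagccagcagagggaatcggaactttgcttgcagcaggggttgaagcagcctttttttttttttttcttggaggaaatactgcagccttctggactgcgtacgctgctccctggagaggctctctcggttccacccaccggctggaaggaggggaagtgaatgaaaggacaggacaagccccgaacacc
PPM1H held the CACGTG motif 1 time, and PLXNA2 held CGCGCG 3 times when overlapping matches are counted. TENM4 held CGCGCG 2 times, TGFBR3 and SIL1 1 time each, and XYLT1, NCKAP5 and RBMS3 held none of the 3 motifs. GC content ran from 43.6% in NCKAP5 to 73.6% in TGFBR3. A match is a description of letters in this window, and the listed start was not matched to the counted transcript, since the builds differ.

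Over all listed promoters, 909 of the 1102 members and 644 of the 766 tested members had at least 1 entry, with 1239 promoters for the tested members and 14526 for all tested genes. CACGTG was found in 5.57% of the tested members' promoters and in 8.31% of those of all tested genes. The share for CGCGCG was 22.3% against 23.1%, and for the CA or TG run 3.07% against 1.87%. In the whole reference table the shares were 6.34%, 14.1% and 2.62%. The members' promoters had a median GC content of 61.2%, against 64.4% for all tested genes, and the shares were not adjusted for it. Members that were higher in the libraries labelled MYC than in WT had CACGTG in 6.78% of 177 promoters, against 10.9% for all genes higher there. Members that were lower had it in 4.68%, against 6.28% for all genes lower there.

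Long genes gave a smaller part of the coding reads in the libraries labelled Zab and MYC than in WT and MYC_Zab. The members' share was 3.63% and 3.62% in WT, 3.74% and 3.77% in MYC_Zab, 3.18% and 3.18% in MYC, and 2.84% and 2.78% in Zab. The 4 groups did not overlap, and the order was Zab, MYC, WT, MYC_Zab from low to high. ADAR alone takes a part of all reads that differs between the groups. With ADAR left out of the total the group means were 3.76% in WT, 3.89% in MYC_Zab, 3.18% in MYC and 2.81% in Zab, and their order did not change. Genes of 100 to 200 kb held 8.74% of the reads in WT, 9.05% in MYC_Zab, 8.64% in MYC and 7.82% in Zab, and genes of up to 5 kb held 13.4%, 13.0%, 13.4% and 17.4%. The short genes' share was thus highest in Zab, where that of the long genes was lowest. With 2 libraries against 2, an exact permutation test cannot give a two-sided p below 0.333, so these shares were compared by their ranges only. Fewer long genes had any read in the libraries labelled Zab: 815 and 827, against 932 and 935 in WT, 902 and 906 in MYC and 965 and 964 in MYC_Zab, over libraries of unequal depth.

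**Figure D1:**
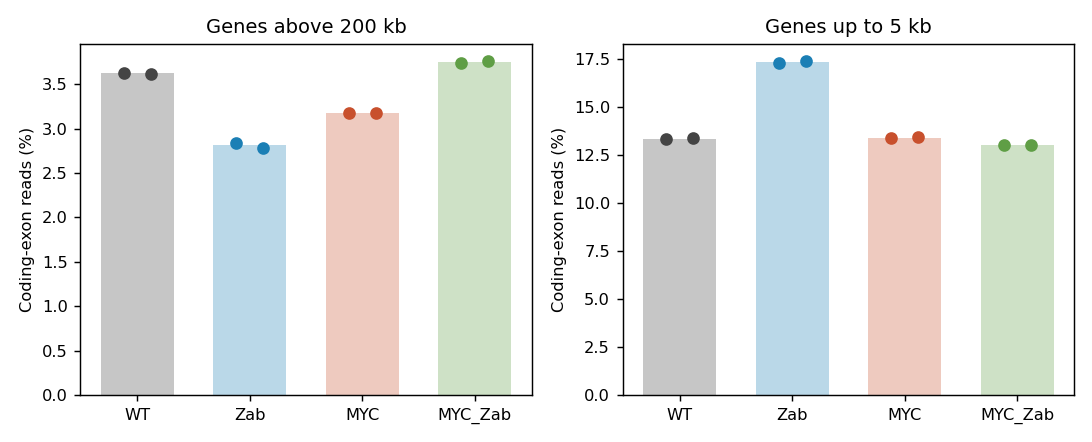
Share of coding-exon reads (%) in genes spanning more than 200 kb (left) and up to 5 kb (right), for each library (points) of the 4 labelled groups with the group means as bars; the axes start at 0. The members' share sits at 2.78% to 2.84% in Zab and 3.18% in MYC, below the 3.62% to 3.77% of WT and MYC_Zab.

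Most members could be tested. The filter on low reads kept 766 of the 1102 members, or 69.5%, against 61.3% of the other genes, and 31 members had no read in any library. A member that passed through the group where it is high had to differ, so the counts below describe the 766 and not all members. Some symbols may share reads and were still counted as separate genes. IQCJ-SCHIP1 and SCHIP1, for example, had 383 reads each over the 8 libraries. The 766 had a median span of 304 kb and a median level of 3.49 CPM per kb of counted exon, against 10.1 CPM per kb in the other genes tested. The spans of all members ran from 200 kb to 2321 kb, and 20 tested members were longer than 1000 kb. At the threshold, LRCH1 (199.871 kb) and FUT9 (199.639 kb) lay just outside and FREM2 (200.054 kb, not tested) and ST6GALNAC5 (200.067 kb) just inside, and ST6GALNAC5 had 26.4 CPM in WT, 33.3 in MYC_Zab, 5.93 in MYC and 9.56 in Zab. The transcript counted for a gene was chosen in each library, so 462 of the 766 had more than 1 counted transcript and 75 were under the threshold in at least 1 library. In 14 tested members the counted transcript differed by group. GPATCH2 was counted over 22.9 kb in the libraries labelled Zab and 204 kb in the others, and FMN1 over 429 kb in WT and 303 kb in the others, so values of these 2 genes are not given.

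Per kb of counted exon, the highest members included APP (132 CPM per kb), which encodes the amyloid precursor protein, and SND1 (112), an RNA-binding nuclease. NDUFAF2, an assembly factor of respiratory complex I, had 98.7 CPM per kb and MAP4, a microtubule-associated protein, 95.9. MTHFD1L, a mitochondrial folate enzyme, had 78.5, SPTBN1, a spectrin of the membrane skeleton, 68.0, ACBD6, which binds acyl-CoA, 53.7, MAD1L1, of the mitotic checkpoint, 52.4, and EXT1, of heparan sulfate synthesis, 46.3 CPM per kb. The median level per kb of counted exon fell with span, from 21.1 CPM per kb in genes of up to 5 kb to 6.23 at 100 to 200 kb, 4.85 at 200 to 300 kb, 2.92 at 300 to 500 kb and 2.01 CPM per kb above 500 kb.

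Differences between groups are given as log2 of CPM + 1 with their standard error from limma, and calls were made where the Benjamini-Hochberg adjusted p was under 0.05 over all 11985 genes tested. This scale understates the changes of low genes. CPM were scaled by TMM, a method that assumes little change in most genes. On the deposited scale, which keeps a factor per library, the median of all genes shifted by 0.47 for MYC over WT, -0.63 for Zab over WT and 0.27 for MYC_Zab over WT. It shifted by -0.19 from MYC to MYC_Zab, 0.89 from Zab to MYC_Zab, 1.113 from Zab to MYC and 0.49 for the interaction. With library totals the shifts were, in this order, -0.06, -0.24, 0.04, 0.12, 0.26, 0.19 and 0.39. Changes below are relative to the TMM scale, and a median of the members is set beside that of all genes. Whether the deposited factor calibrates the libraries is not stated, so directions that differ between the scales are not settled. The comparisons with WT share the WT libraries, so their values are given side by side only.

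In the libraries labelled MYC, more long genes fell than rose against WT. Of the 766 tested members, 237 (30.9%) fell and 95 (12.4%) rose, while of all genes tested 21.9% fell and 22.2% rose. The median member had a difference of -0.28, against -0.01 for all genes, and on the deposited scale the members' median turned to 0.19 with all genes at 0.47, with 253 members higher and 126 lower there. Called falls of at least 1 on this log2 scale numbered 131 (17.1%) and rises of that size 40 (5.22%), against 9.87% and 6.26% of all genes. Read per level class, the members' median was -0.35 below 10 CPM, -0.29 from 10 to 50 CPM and -0.14 above 50 CPM, against -0.20, -0.09 and 0.11 for all genes of the same classes. The number that rose was 63 (8.03%) without MYC replicate 1 and 59 (7.70%) with WT and MYC_Zab as 1 sample each.

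NAV3, a microtubule-binding neuron navigator (chr12:78224674-78606790 on hg19), had 192 and 188 CPM in the libraries labelled WT, 199 and 213 in MYC_Zab, 11.1 and 15.3 in MYC, and 123 and 94.8 in Zab. The MYC libraries were far below all others, 14.4-fold lower than WT, with a difference of -3.76 ± 0.14 (adjusted p = 3.58e-18). PLXNA2, a semaphorin receptor (chr1:208195588-208417729), had 36.6 and 33.3 CPM in WT, 47.0 and 41.9 in MYC_Zab, 3.10 and 2.23 in MYC, and 48.9 and 49.2 in Zab. Only the MYC libraries were low, 13.1-fold below WT, and the difference was -3.30 ± 0.23. TENM4, a teneurin adhesion protein (chr11:78363874-79152074), had 13.9 and 16.4 CPM in WT, 19.98 and 19.1 in MYC_Zab, 1.55 and 0.742 in MYC, and 3.54 and 3.14 in Zab. Here both Zab and MYC lay below WT and MYC_Zab, and the fall in MYC was -2.94 ± 0.39. CSMD3, a large membrane protein with CUB and sushi domains, had 18.8 and 18.6 CPM in WT, 24.1 and 26.8 in MYC_Zab, 2.07 and 0.495 in MYC, and 2.95 and 4.19 in Zab. It fell by 3.20 ± 0.39 in MYC on the log2 scale, and no library of Zab or MYC reached those of WT. The other largest falls were PDZD2 (-3.00 ± 0.39), a PDZ domain protein, OTOGL (-3.00 ± 0.45), an otogelin-like secreted protein, TSHZ2 (-2.80 ± 0.27), a zinc finger factor, and NTNG1 (-2.75 ± 0.45), a netrin. Their means in the libraries labelled MYC were 0.505, 0.640, 3.53 and 0.505 CPM.

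The largest rises in the libraries labelled MYC were of genes with varied roles. PDZRN3, a ubiquitin ligase with PDZ domains (chr3:73431582-73674092), had 7.13 and 2.50 CPM in WT, 2.08 and 4.72 in MYC_Zab, 35.1 and 38.1 in MYC, and 3.54 and 1.05 in Zab. The MYC libraries were above all others, and the rise over WT was 2.82 ± 0.46 or 7.598-fold. PPM1H, a protein phosphatase (chr12:63037774-63328930), had 2.59 and 2.86 CPM in WT and 17.6 and 20.8 in MYC, a rise of 2.43 ± 0.42 or 7.03-fold. ABLIM1, an actin-binding LIM protein (chr10:116190871-116444202), had 68.7 and 73.3 CPM in WT, 74.5 and 72.0 in MYC_Zab, 193 and 235 in MYC, and 50.7 and 35.6 in Zab. It was highest in MYC, by 1.57 ± 0.14 or 3.01-fold over WT, and did not overlap with any other group there. DLGAP1, a postsynaptic scaffold, rose by 2.32 ± 0.42, TGFBR3, a TGF-beta co-receptor, by 2.04 ± 0.40, and GALNT18, of the family that starts mucin-type O-glycans, by 1.98 ± 0.21. GABRB2, a GABA receptor subunit, rose by 1.75 ± 0.52, and GHR, the growth hormone receptor, by 1.72 ± 0.57. The GABRB2 call ended without either MYC library (1.75 and 1.75, adjusted p = 0.0677 in both). The GHR call ended without WT replicate 1 (1.27), MYC replicate 1 (1.48) or MYC replicate 2 (1.95), where the adjusted p was 0.178, 0.170 and 0.0653.

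In the libraries labelled Zab too, more long genes fell than rose against WT. Of the tested members 290 (37.9%) fell and 53 (6.92%) rose, against 27.1% and 22.5% of all genes. The share that fell was near that of shorter classes, at 36.8% for genes of 50 to 100 kb and 36.3% for genes of 100 to 200 kb. Of these 2 classes 14.5% and 13.0% rose. The median member had a difference of -0.44, against -0.08 for all genes, and on the deposited scale 537 members were lower and 4 higher, with a median of -0.98 beside -0.63. With library totals 376 were lower and 38 higher. Called falls of at least 1 on the log2 scale numbered 137 (17.9%) and rises of that size 8 (1.04%), against 12.7% and 4.65% of all genes. The members' median was -0.59 below 10 CPM, -0.46 from 10 to 50 CPM and -0.26 above 50 CPM, against -0.30, -0.19 and 0.14 for all genes of these classes. The 304 tested members counted on 1 transcript in all libraries had a median 0.20 below that of all genes, against 0.37 below for all tested members. DESeq2 called 184 members (24.0%) lower, and the fit with WT and MYC_Zab as 1 sample each 160 (20.9%).

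SEMA3E, a secreted semaphorin (chr7:82992554-83278455), had 30.5 and 35.04 CPM in WT, 29.1 and 26.8 in MYC_Zab, 25.3 and 26.5 in MYC, and 2.36 and 5.76 in Zab. Only the Zab libraries were low, 8.07-fold below WT (-2.82 ± 0.29, adjusted p = 5.29e-09). FER, a non-receptor tyrosine kinase (chr5:108083598-108532541), had 39.9 and 35.8 CPM in WT, 38.9 and 37.7 in MYC_Zab, 20.4 and 17.3 in MYC, and 7.07 and 7.86 in Zab. It stood lowest in Zab (-2.20 ± 0.23), and MYC lay between Zab and WT without overlap. NCKAP5, a protein of few described roles (chr2:133429362-134326034), had 8.75 and 7.87 CPM in WT, 9.08 and 9.68 in MYC_Zab, 3.10 and 2.23 in MYC, and 1.18 and 0 in Zab. Its 2 reads in Zab gave a Zab to WT ratio of 0.0710, with a 95% exact counting interval of 0.00836 to 0.270, which covers counting error only and is too narrow where reads come in pairs. RBMS3, an RNA-binding protein (chr3:29322562-30051877), fell by 2.27 ± 0.43 in Zab, from 17.2 and 16.4 CPM to 1.18 and 5.24. ARHGAP42, a GTPase-activating protein, had 10.4 and 17.5 CPM in WT and 3.54 and 1.05 in Zab, a difference of -2.25 ± 0.39. PIBF1, a centrosomal protein, CCDC148, a coiled-coil protein, and THRB, a thyroid hormone receptor, had no read in Zab replicate 1, with differences of -2.27 ± 0.47, -2.26 ± 0.51 and -2.24 ± 0.48. Without that library these were -1.46, -1.45 and -1.43, and all 3 remained called.

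Rises in the libraries labelled Zab were few and mostly below 3-fold. On the deposited scale only 4 tested members were called higher in Zab over WT, so not all rises named here were called there. CDH4, the cadherin of the retina and other neural tissue (chr20:59827317-60515673), had 58.3 and 55.4 CPM in WT, 57.9 and 65.3 in MYC_Zab, 22.98 and 29.4 in MYC, and 141 and 155 in Zab. Zab stood above all other libraries (1.37 ± 0.15, 2.61-fold) and MYC below all others. XYLT1, which adds the first sugar of proteoglycan chains (chr16:17195626-17564817), had 14.6 and 14.7 CPM in WT, 13.5 and 16.9 in MYC_Zab, 2.32 and 2.97 in MYC, and 29.5 and 33.0 in Zab, so Zab was highest (1.04 ± 0.30) and MYC lowest. SIL1, an endoplasmic reticulum co-chaperone (chr5:138282413-138534057), rose by 1.002 ± 0.28, from 18.1 and 20.4 CPM to 46.6 and 33.5. PRKCE, a protein kinase C, rose by 0.98 ± 0.19, from 24.95 and 39.3 CPM to 67.8 and 58.1. The calls of 3 low genes ended when 1 library was left out. RPS6KA2, a ribosomal S6 kinase, at 1.18 ± 0.44, was no longer called without WT replicate 1 (1.32), WT replicate 2 (1.04) or Zab replicate 2 (0.98), with adjusted p = 0.0636, 0.140 and 0.121. FARP1, an exchange factor of small GTPases, at 1.18 ± 0.33, was at 0.76 without WT replicate 2 (adjusted p = 0.106). KCNMA1, a calcium-activated potassium channel, at 1.16 ± 0.42, was no longer called without WT replicate 2 (1.02, adjusted p = 0.116) or Zab replicate 2 (1.13, adjusted p = 0.0561).

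**Figure D2:**
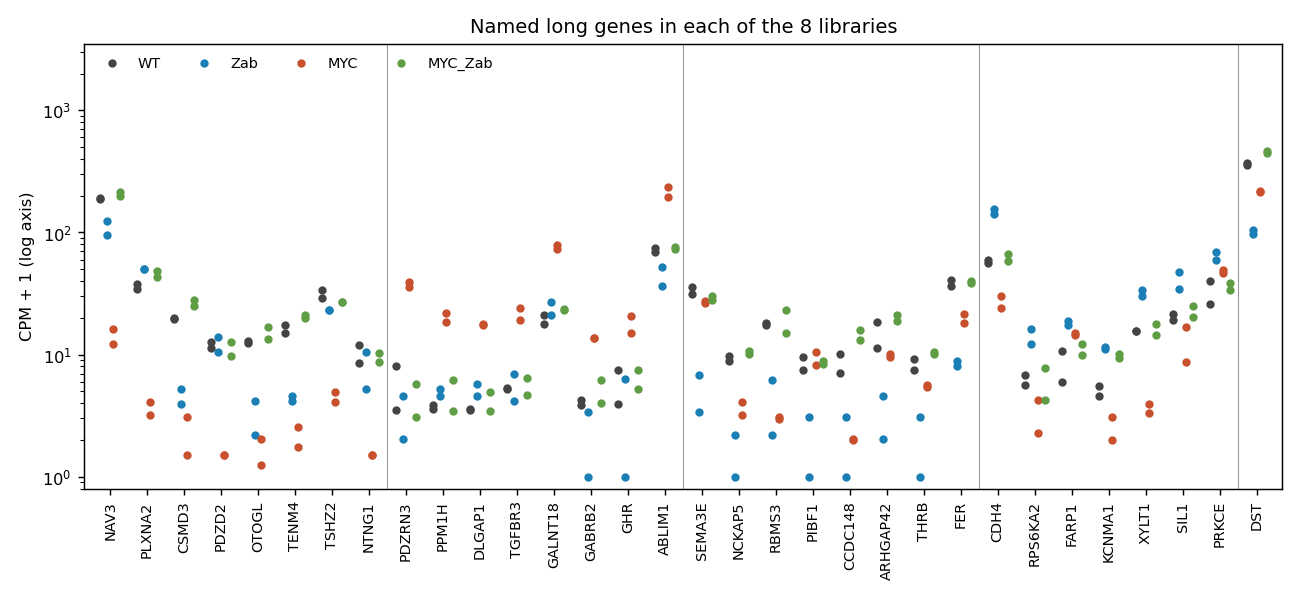
CPM + 1 (log axis) of named long genes in each of the 8 libraries, with 1 point per library coloured by labelled group. NAV3 drops to 11.1 and 15.3 CPM in the MYC libraries, and SEMA3E to 2.36 and 5.76 CPM in the Zab libraries.

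Few long genes differed between the libraries labelled MYC_Zab and WT. In this comparison 1 member (0.131%) rose and 0 fell, against 0.134% and 0.442% of all genes, and the median member had a difference of 0.02, against 0.00. At an unadjusted p under 0.05, 37 members (4.83%) differed, against 7.68% of all genes. edgeR called 1 member higher and 0 lower, and DESeq2 2 higher and 0 lower, with no adjusted p for 748 of the 766. With 1 of the Zab libraries left out, whichever it was, limma called 2 higher (0.244%). On the deposited scale 73 members were higher and 0 lower, beside an all-gene shift of 0.27. The member called was DST, a plakin that links cytoskeletal filaments (chr6:56322794-56819628). It had 369 and 357 CPM in WT, 451 and 464 in MYC_Zab, 216 and 217 in MYC, and 96.1 and 103 in Zab. The 4 groups did not overlap, with Zab at the bottom (-1.85 ± 0.07 from WT), MYC above it (-0.74 ± 0.07 from WT) and MYC_Zab at the top (0.33 ± 0.07, adjusted p = 0.0235). The MYC_Zab call ended on leaving out any of the WT, MYC or MYC_Zab libraries, with differences of 0.36 and 0.31 without WT replicates 1 and 2, 0.33 without either MYC library, and 0.35 and 0.31 without MYC_Zab replicates 1 and 2, and adjusted p from 0.0701 to 0.535.

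Against MYC alone, the libraries labelled MYC_Zab were higher in 227 members (29.6%) and lower in 91 (11.9%), while of all genes 22.0% were higher and 22.5% lower. The members' median was 0.25, against 0.03 for all genes, and on the deposited scale it was 0.04 against -0.19, with 182 members higher and 150 lower. The 304 members counted on 1 transcript had a median 0.13 above that of all genes, against 0.22 for all tested members. The number lower was 62 (7.90%) without MYC replicate 1, and with WT and MYC_Zab as 1 sample each 145 (18.9%) were higher. NAV3 stood 15.6-fold and PLXNA2 16.7-fold above MYC (3.88 ± 0.14 and 3.64 ± 0.23). DGKI, a diacylglycerol kinase, had 0 and 0.495 CPM in MYC and 16.3 and 11.7 in MYC_Zab. Its 2 reads in MYC gave a ratio of 56.6 with a 95% exact counting interval of 15.3 to 474. PDZRN3 was 10.8-fold and PPM1H 4.995-fold lower than in MYC. TNS3, a focal adhesion tensin (chr7:47314752-47621709), had 104 and 107 CPM in MYC, above the 30.1 and 39.2 in MYC_Zab and the 40.8 and 42.5 in WT, a difference of -1.59 ± 0.16 from MYC to MYC_Zab.

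Against Zab alone, 291 members (37.99%) were higher in MYC_Zab and 58 (7.57%) lower, against 26.8% and 22.6% of all genes. The share higher was not particular to the members. It was 36.4% for genes of 50 to 100 kb and 38.6% for genes of 100 to 200 kb, with 15.0% and 12.7% lower. The members' median was 0.42, against 0.06, and the split was 627 to 1 on the deposited scale, whose all-gene shift was 0.89. The members counted on 1 transcript had a median 0.22 above that of all genes, against 0.36 for all tested members. The number lower was 37 (4.72%) without MYC_Zab replicate 1, 35 (4.48%) without MYC_Zab replicate 2 and 30 (3.92%) with library totals. With WT and MYC_Zab as 1 sample each, 166 (21.7%) were higher and 31 (4.05%) lower. VPS13C, a lipid transfer protein (chr15:62144590-62352646), had 102 and 123 CPM in WT, 132 and 131 in MYC_Zab, 49.0 and 53.9 in MYC, and 25.3 and 24.6 in Zab. It was lowest in Zab and 5.26-fold higher in MYC_Zab (2.35 ± 0.14). SEMA3E was 6.88-fold and ARHGAP42 8.31-fold higher than in Zab, and CDH4 2.41-fold lower. SND1 had 549 and 622 CPM in Zab and 294 and 293 in MYC_Zab, a difference of -0.99 ± 0.07. CEP112, a centrosomal protein, had 0 and 6.28 CPM in Zab and 13.0 and 14.9 in MYC_Zab. Its rise of 2.47 ± 0.55 depended on the Zab libraries, which gave 1.03 when replicate 1 was left out and 3.92 when replicate 2 was.

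The libraries labelled MYC and Zab also differed from each other. With MYC over Zab, 227 members (29.6%) were higher and 143 (18.7%) lower, against 30.6% and 25.9% of all genes, so the share of members higher was close to the background. The members' median was 0.19, against 0.08, and on the deposited scale 568 members were higher and 30 lower, beside an all-gene shift of 1.113. The gap to all genes was 0.11, and 0.0656 for members counted on 1 transcript. SYT14, a synaptotagmin, had 24.5 and 20.8 CPM in MYC and 2.36 and 3.14 in Zab, with no overlap. KIRREL3, an immunoglobulin-domain adhesion protein, went the other way, at 1.81 and 1.73 CPM in MYC and 14.1 and 15.2 in Zab.

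The interaction asks whether MYC_Zab differs from WT by more than the sum of the MYC and Zab differences. It was positive in 337 members (44.0%) and negative in 75 (9.79%), against 29.3% and 24.0% of all genes. Among genes of 100 to 200 kb it was positive in 40.0% and negative in 15.5%. The members' median was 0.70, against 0.14 for all genes, and on the deposited scale the split was 438 to 47. With WT and MYC_Zab as 1 sample each, 223 (29.1%) were positive. A gene that is lower in both Zab and MYC than in WT and MYC_Zab has a positive value. MYC_Zab differed little from WT, with a members' median of 0.02. The interaction therefore mostly restates the MYC and Zab differences from WT with the sign turned, and is no separate support for them. DST had an interaction of 2.93 ± 0.10 and VPS13C of 3.46 ± 0.20. ACACA, the enzyme that commits acetyl-CoA to fatty acid synthesis, had a negative one, at -1.74 ± 0.12.

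**Figure D3:**
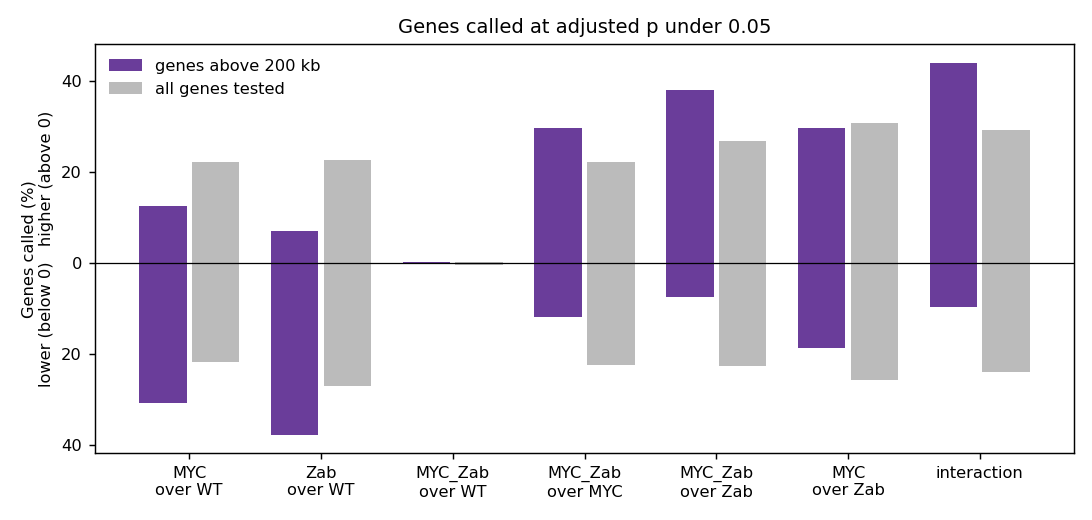
Percent of genes called higher (above 0) and lower (below 0) at adjusted p under 0.05 in each of the 7 comparisons, for the 766 tested long genes and for all 11985 genes tested. Long genes show 30.9% lower in MYC over WT and 37.9% lower in Zab over WT, against 21.9% and 27.1% of all genes. Genes of 100 to 200 kb, not drawn, had 25.1% and 36.3% lower.

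The difference from WT went with span in both groups, by different courses. The classes of span hold tested genes on the autosomes, with symbols starting with ZNF or COL left out. In MYC over WT the median was 0.04, 0.00, 0.03, 0.00 and -0.06 for spans of up to 5, 5 to 20, 20 to 50, 50 to 100 and 100 to 200 kb. It was -0.15 for 200 to 300 kb (376 genes), -0.30 for 300 to 500 kb (259) and -0.51 above 500 kb (131), so most of the slope lay within the members. The percent called lower in these last 3 classes was 30.1, 28.2 and 38.9, and the percent called higher 13.8, 12.7 and 7.63. On the deposited scale the medians of these 3 classes were 0.33, 0.17 and -0.02. In Zab over WT the median fell from 0.36 up to 5 kb through 0.14, -0.09, -0.27 and -0.30 to -0.42, -0.46 and -0.48 in the 3 long classes. Most of that slope lay below 100 kb, and the percent called lower was 38.6, 37.8 and 35.9 in the long classes. It was already 36.8 at 50 to 100 kb and 36.3 at 100 to 200 kb. MYC_Zab over WT had medians between -0.01 and 0.03 in all 8 classes. The level per kb also fell with span, as given above, and its part in these slopes was not tested.

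**Figure D4:**
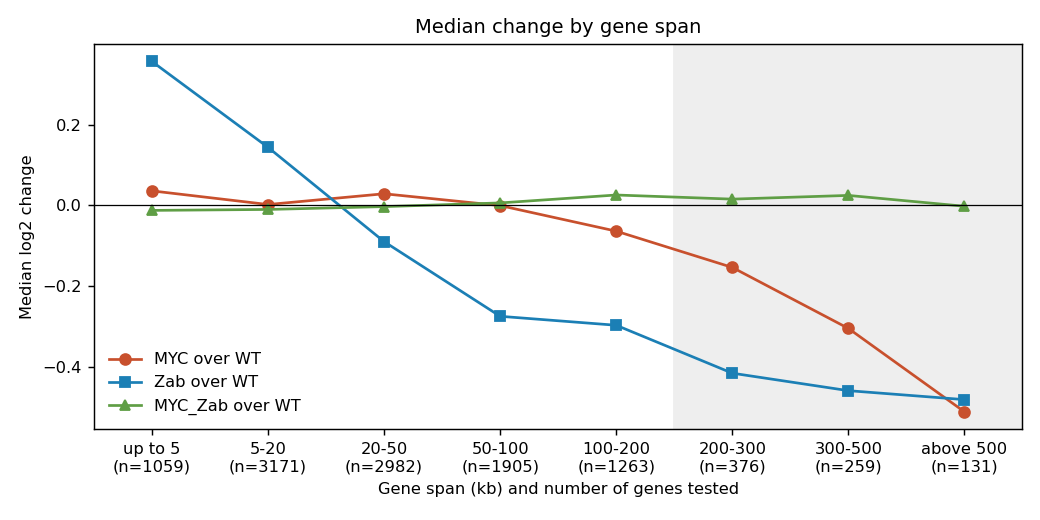
Median log2 difference from WT in 8 classes of span (kb, number of genes under each class), for MYC, Zab and MYC_Zab. Genes are the tested ones on the autosomes, without symbols starting with ZNF or COL. The grey band marks spans above 200 kb. The MYC line turns down within the band, to -0.51 above 500 kb, the Zab line has most of its fall left of the band, and the MYC_Zab line stays near 0.

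The longest tested members followed no single course. CSMD1 (2060 kb) had 36.3 and 30.7 CPM in WT, 28.8 and 37.7 in MYC_Zab, 38.7 and 26.7 in MYC, and 21.2 and 30.4 in Zab, and was called in none of the comparisons with WT. Neither were AUTS2 (1195 kb), a transcriptional regulator of neurodevelopment, at 52.7, 45.7, 42.5 and 42.0 CPM over the groups in the same order, nor GPC6 (1181 kb), a glypican, at 18.2, 19.3, 25.2 and 17.4 CPM. LRRC4C (1345 kb), the netrin-G ligand of synapses, had 20.1 and 19.3 CPM in WT, 20.8 and 16.4 in MYC_Zab, 4.39 and 3.71 in MYC, and 10.02 and 10.5 in Zab. It was lower in MYC than in Zab without overlap, and fell by 2.04 ± 0.31 in MYC and 0.88 ± 0.31 in Zab. The Zab call ended without WT replicate 1 (-0.85) or WT replicate 2 (-0.91). CDH13 (1174 kb), the cadherin without a transmembrane domain, fell by 1.48 ± 0.25 in MYC and 0.64 ± 0.25 in Zab, and its Zab value was -0.32 without Zab replicate 1 and -0.97 without Zab replicate 2. MAGI2 (1437 kb), a scaffold of junctions, fell by 1.27 ± 0.41 in MYC. This call ended without WT replicate 1 (-1.20), WT replicate 2 (-1.32) or MYC replicate 2 (-0.92). The CDH13 call in Zab also ended without either WT library (-0.65 and -0.63) or either MYC_Zab library (-0.64 in both). NBPF19 and NBPF10 have near-identical copies and are uncertain.

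By role, 15 lists covered 414 of the tested members, and 36 members of the files were in 2 or more lists. The role counts are to be set beside the shares of all 766 tested members. These were 30.9% lower and 12.4% higher in MYC over WT, and 37.9% lower and 6.92% higher in Zab over WT. Of the 22 tested genes of common fragile sites, 10 fell and 0 rose in MYC over WT, with a median of -0.80. On the deposited scale 3 were lower and 2 higher there, with a median of -0.33. Of the same 22, 9 fell and 0 rose in Zab over WT, with a median of -0.55. PTPRG, a receptor phosphatase, had 115 CPM in WT, 112 in MYC_Zab, 89.9 in MYC and 79.2 in Zab, with differences of -0.35 ± 0.11 in MYC and -0.53 ± 0.11 in Zab. On the deposited scale PTPRG turned to 0.15 in MYC, and its MYC call ended without WT replicate 1 (-0.27), MYC replicate 1 (-0.34) or MYC replicate 2 (-0.35). LPP, a focal adhesion LIM protein, had 80.9, 86.3, 56.8 and 27.1 CPM in the same order and fell by 1.61 ± 0.19 in Zab. Its fall of 0.51 ± 0.19 in MYC ended as a call without WT replicate 1 (-0.54), WT replicate 2 (-0.47) or MYC replicate 1 (-0.34). EXOC4, of the exocyst, fell by 0.77 ± 0.16 in MYC and had -0.08 ± 0.16 in Zab.

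In the adhesion and junction list of 29 tested members, 13 fell and 1 rose in MYC (median -0.66), 8 were lower and 7 higher there on the deposited scale (median -0.37), and 11 fell and 3 rose in Zab (median -0.33). TENM2, a teneurin (chr5:167000664-167691162), had 127 and 127 CPM in WT, 119 and 125 in MYC_Zab, 43.4 and 47.0 in MYC, and 172 and 165 in Zab. It fell by 1.47 ± 0.11 in MYC and rose by 0.41 ± 0.11 in Zab, where the deposited scale gave -0.19. PARD3, a polarity scaffold, fell by 0.66 ± 0.08 in MYC and had -0.06 ± 0.08 in Zab. Of 19 guidance and growth factor genes, 5 fell and 2 rose in MYC (median -0.33, and 0.14 on the deposited scale) and 8 fell and 0 rose in Zab (median -0.63). ROBO1, a Slit receptor, had 81.1 CPM in WT and 52.0 in Zab (-0.63 ± 0.13), and NEO1, a netrin and RGM receptor, rose by 0.58 ± 0.16 in MYC, a call that ended without MYC replicate 2 (0.47).

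Of 35 protein kinase genes, 10 fell and 7 rose in MYC (median -0.29, and 0.18 on the deposited scale), and 12 fell and 4 rose in Zab (median -0.17). IGF1R, the receptor of insulin-like growth factors (chr15:99191768-99507759), had 396 and 397 CPM in WT, 390 and 370 in MYC_Zab, 233 and 240 in MYC, and 237 and 266 in Zab, and fell by 0.66 ± 0.07 in Zab and 0.74 ± 0.07 in MYC. CDK6, a G1 kinase (chr7:92234235-92465941), had 216 and 231 CPM in WT, 233 and 249 in MYC_Zab, 457 and 461 in MYC, and 124 and 129 in Zab. It went opposite ways, up by 1.04 ± 0.08 in MYC and down by 0.82 ± 0.08 in Zab. TRIO, an exchange factor of small GTPases with a kinase domain, had 505 CPM in WT, 555 in MYC_Zab, 256 in MYC and 469 in Zab, a fall of 0.98 ± 0.06 in MYC. Among 7 phosphodiesterase and anchor genes 2 fell and 1 rose in MYC (median -0.45, and 0.04 on the deposited scale), and 3 fell and 0 rose in Zab (median -0.22). Of 41 regulators of small GTPases, 15 fell and 6 rose in MYC (median -0.29, and 0.18 on the deposited scale), and 18 fell and 6 rose in Zab (median -0.33). NF1, the Ras GTPase-activating neurofibromin, had 189 CPM in WT and 119 in Zab (-0.67 ± 0.09), and ASAP1, an Arf GTPase-activating protein, 176 and 112 CPM (-0.64 ± 0.09).

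The cytoskeleton list was the second largest, with 51 tested members. In MYC 25 fell and 10 rose (median -0.48, and 0.02 on the deposited scale), and in Zab 26 fell and 4 rose (median -0.45). DST and NAV3, above, are among the falls. SPTBN1 had 644 CPM in WT, 607 in MYC_Zab, 635 in MYC and 873 in Zab, and rose by 0.44 ± 0.05 in Zab, where the deposited scale gave -0.17. MAP4 rose in both, by 0.74 ± 0.06 in Zab and 0.33 ± 0.06 in MYC. In membrane trafficking, 15 of 34 fell and 1 rose in MYC (median -0.42, and 0.06 on the deposited scale), and 17 fell and 0 rose in Zab (median -0.46). ERC1, a Rab6-binding scaffold, and OSBPL10, an oxysterol-binding protein, had 0.03 ± 0.08 and 0.08 ± 0.11 in Zab over WT, and -0.57 and -0.52 on the deposited scale.

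Transcription and chromatin genes were the largest list. Of 64 tested, 28 fell and 6 rose in Zab (median -0.58), while in MYC 13 fell and 11 rose (median -0.08, and 0.40 on the deposited scale). ASH1L, a histone methyltransferase, had 136 CPM in WT, 152 in MYC_Zab, 180 in MYC and 98.9 in Zab. It fell by 0.46 ± 0.10 in Zab and rose by 0.40 ± 0.10 in MYC, a rise no longer called without WT replicate 2 (0.32) or MYC replicate 2 (0.31). ZFHX3, a zinc finger homeobox factor, rose by 0.38 ± 0.10 in Zab and fell by 0.65 ± 0.10 in MYC. Its rise in Zab ended as a call without WT replicate 2 (0.28) or Zab replicate 1 (0.22), and the deposited scale gave -0.22. Of 13 RNA-binding protein genes, 5 fell and 0 rose in Zab (median -0.49), and 4 fell and 2 rose in MYC (median 0.15, and 0.64 on the deposited scale). SRPK2, a kinase of splicing factors, rose by 0.63 ± 0.12 in MYC, and DDX10, an RNA helicase, fell by 0.69 ± 0.10 in Zab.

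Of 16 tested ubiquitin ligases and related enzymes, 8 fell in each comparison, with 0 rises in MYC (median -0.48, and 0.00 on the deposited scale) and 1 in Zab (median -0.50). USP32, a deubiquitinase, had 335 CPM in WT, 334 in MYC_Zab, 188 in MYC and 203 in Zab, and BIRC6, a giant inhibitor of apoptosis with ligase activity, 308, 293, 242 and 188 CPM. Both were lower in Zab and MYC than in WT and MYC_Zab, with no overlap between libraries, but BIRC6 in MYC turned from -0.35 ± 0.08 to 0.15 on the deposited scale. Of 20 ion channel and neurotransmitter receptor genes, 11 fell and 1 rose in Zab (median -0.84), and 6 fell and 1 rose in MYC (median -0.17, and 0.29 on the deposited scale). ITPR1, a calcium release channel, had 48.6 and 55.8 CPM in WT, 47.5 and 45.4 in MYC_Zab, 95.3 and 95.4 in MYC, and 56.6 and 52.9 in Zab, and rose in MYC by 0.86 ± 0.14.

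The matrix and secreted list of 25 also holds glycan enzymes such as EXT1 and MGAT5. In this list 10 fell and 5 rose in MYC (median -0.33, and 0.16 on the deposited scale), and 7 fell and 2 rose in Zab (median -0.54). EXT1 had 208 and 197 CPM in WT, 189 and 187 in MYC_Zab, 46.5 and 51.7 in MYC, and 183 and 176 in Zab, so only MYC was far below the rest (-2.02 ± 0.10, 4.12-fold). MGAT5, a glycan-branching enzyme, rose by 0.77 ± 0.11 in MYC and 0.76 ± 0.11 in Zab. Of 44 metabolic genes, 11 fell and 6 rose in MYC (median -0.16, and 0.29 on the deposited scale), and 15 fell and 6 rose in Zab (median -0.37). ACACA (chr17:35441927-35766927) had 172 and 172 CPM in WT, 159 and 155 in MYC_Zab, 417 and 407 in MYC, and 246 and 198 in Zab. It rose in MYC by 1.25 ± 0.09, and its rise of 0.36 ± 0.09 in Zab ended as a call without Zab replicate 1 (0.20) and turned to -0.25 on the deposited scale. Of 20 genome maintenance and cell cycle genes, 4 fell and 1 rose in MYC (median -0.05, and 0.44 on the deposited scale), and 9 fell and 2 rose in Zab (median -0.37). MAD1L1 rose by 0.73 ± 0.10 in Zab and had -0.05 ± 0.10 in MYC. The role lists were written with earlier results of these data known, and their counts are to be read against the 766 tested members as a whole.

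**Figure D5:**
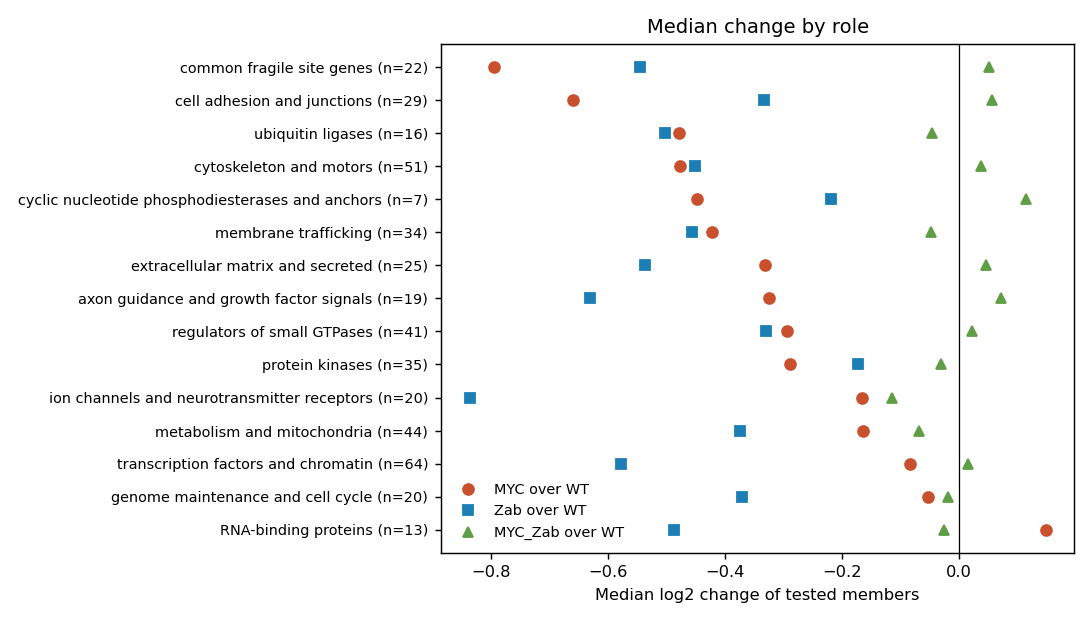
Median log2 difference from WT of the tested long genes in each of 15 role lists (number tested beside each name), for MYC, Zab and MYC_Zab. Fragile site genes lie at -0.80 in MYC, ion channel genes at -0.84 in Zab, and the MYC_Zab points lie near 0.

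The members lay on all 22 autosomes. Over the 17 autosomes with at least 20 tested members, the median of the members ran from -0.50 on chromosome 5 to 0.03 on chromosome 9 in MYC over WT, and from -0.78 on chromosome 12 to -0.12 on chromosome 9 in Zab over WT.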

How the data were processed

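TT-seq libraries of U2OS cells, 2 for each of the 4 labelled groups, were analysed from gene tables. Per the file headers, the authors used analyzeRepeats of HOMER to count exon reads of RefSeq coding genes (hg19) on the opposite strand, with 1 transcript kept per symbol and library. STAR, bedtools 2.29.2, SAMtools 1.11 and Trim Galore 0.6.6, and the builds dm6 and hg19, are listed in the submitters' processing notes without roles. The deposited values are a signal: whole reads times a step of 0.204 to 0.259 per library, of unstated basis. The step was 0.218 in WT replicate 1 at 2.27e+07 tags and 0.259 in Zab replicate 1 at 2.86e+07 tags. It was thus not a scaling to the tag total alone, and whether dm6 served for a spike-in is not stated. Dividing by the step recovered reads for 100% of values within 0.02 reads. From 77.2% to 82.7% of low values were even, so reads mostly came in pairs.

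TMM factors of edgeR 4.0.16 turned deposited values into CPM. Genes were kept by filterByExpr on recovered reads at a minimum of 10. limma 3.58.1 in R 4.3.3 fitted log2(CPM + 1) with a trend, all 8 libraries and a term per group, which left 4 residual degrees of freedom; p-values were Benjamini-Hochberg adjusted over 11985 genes and 7 comparisons were made. Fold ratios are ratios of mean CPM. The alternatives were other scalings, filters, pseudocounts, edgeR's and DESeq2 1.42.0's count tests, a span of 300 kb, genes of 1 transcript, the WT and MYC_Zab libraries as 1 sample per group, a replicate block and leaving out each library. Replicate numbers did not pair the libraries: deviations of same-numbered libraries correlated by -0.03 to 0.01. The method was tested on simulated data.

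Members and lists were chosen with earlier results of these data known. Genes named are, at a mean of at least 5 CPM, the 8 largest called rises and falls without overlap of libraries for MYC and for Zab over WT and for MYC_Zab over either, the 5 largest in the others, the 10 highest per kb, the 10 longest, and the 3 highest of each role list, with MYC and ADAR; of these the text describes those that carry each comparison, and a few are not reported here. Promoters were matched by symbol to RefSeq's table on GRCh38.p14.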

Additional observations from a re-analysis of the deposited data

Results flagged for a closer look

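The effect of Zab was compared between cells labelled with and without MYC overexpression by the test of the interaction in limma. It was called in 337 of 766 tested members upward (44.0%) and 75 downward (9.79%), against 29.3% and 24.0% of all genes. The largest positive values on the log2 scale were those of CSMD3 (5.75), OTOGL (5.32), TENM4 (5.18), CCDC148 (5.11) and RBMS3 (4.90), each lower in all 4 libraries labelled Zab or MYC than in any labelled WT or MYC_Zab. The largest negative values were those of DLGAP1 (-2.62), PPM1H (-2.50), PDZRN3 (-2.36), TGFBR3 (-2.01) and GALNT18 (-2.00), each higher in both MYC libraries than in the other 6. The libraries labelled MYC_Zab also lacked the MYC overexpression of their label and resembled WT in ADAR, and the part of this in the interaction was not tested. Since MYC_Zab differed little from WT, the interaction values mostly restate the MYC and Zab differences from WT with the sign turned.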

How the results depend on the processing

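Percentages are of the tested members called higher or lower, and medians are the members' median minus that of all genes, on the log2 scale. Over the 7 comparisons and all alternatives, 249 of the percentages stayed within 1.5 times the value of the report and 43 did not, while 105 of the medians moved by less than 1 SD of the values from single libraries and 41 by more. No median changed sign. The cause of the moves was not tested, except that leaving out libraries or counting them as 1 sample leaves fewer samples, and that another filter or span changes which genes are counted. Depth limits the low members: reads came in pairs, so a value of a few reads rests on fewer fragments, and Zab had the fewest reads per tag.

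On the deposited scale, MYC over WT gave 33.0% higher and 16.4% lower, Zab over WT 0.522% and 70.1%, and MYC_Zab over WT 9.53% higher with a median of 0.0101. MYC_Zab over MYC gave 19.6% lower, MYC_Zab over Zab 81.9% higher and 0.131% lower (median 0.31), MYC over Zab 74.2% and 3.92% (median 0.0738), and the interaction 6.14% lower. With library totals MYC_Zab over Zab gave 3.92% lower. Among single genes, 26 values turned sign, all on this deposited scale. In MYC over WT they became 0.43 for SND1, 0.48 for SPTBN1, 0.44 for MAD1L1 and CCNY, 0.15 for PTPRG and BIRC6, 0.35 for AKAP13 and NF1, 0.21 for TBC1D1, 0.45 for ASAP1, 0.0378 for HERC2, 0.0367 for VPS13D and 0.16 for FBN2. In Zab over WT they became -0.22 for MTHFD1L and ZFHX3, -0.17 for SPTBN1, -0.19 for TENM2, -0.40 for NEO1, -0.60 for RBFOX2, -0.57 for ERC1, -0.52 for OSBPL10 and ITPR1, -0.25 for ACACA, -0.0464 for GALNT2, -0.13 for CCNY and -0.27 for MYC.

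With no filter, MYC over WT gave 7.84% higher and 20.2% lower (median -0.25), MYC_Zab over WT 0% higher (median 0.0225), MYC_Zab over MYC 7.66% lower, MYC_Zab over Zab 4.95% lower (median 0.28) and the interaction 6.35% lower (median 0.43). At a mean of 10 CPM the medians were 0.00652 in MYC_Zab over WT, 0.31 in MYC_Zab over Zab and 0.0708 in MYC over Zab. A pseudocount of 5 gave medians of -0.21 for MYC and -0.27 for Zab over WT, 0.17 and 0.26 for MYC_Zab over MYC and over Zab, 0.0723 for MYC over Zab and 0.43 for the interaction, and a pseudocount of 0.25 gave 0.63 in the interaction. DESeq2 gave 24.0% lower in Zab over WT, 0.261% higher in MYC_Zab over WT and a median interaction of 0.62, and edgeR also gave 0.62 for the latter.

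With WT and MYC_Zab as 1 sample each, 7.70% were higher in MYC over WT, 20.9% lower in Zab over WT, 0% higher in MYC_Zab over WT, 18.9% higher in MYC_Zab over MYC, 21.7% higher and 4.05% lower in MYC_Zab over Zab, and 29.1% higher in the interaction. For genes with the same counted transcript in all libraries, the medians were -0.21 for MYC, -0.20 for Zab and 0.0301 for MYC_Zab over WT, 0.13 and 0.22 for MYC_Zab over MYC and over Zab, 0.0656 for MYC over Zab and 0.40 for the interaction, with 10.5% higher in Zab over WT and 0% in MYC_Zab over WT. Above 300 kb they were -0.33 for MYC over WT, 0.31 and 0.40 for MYC_Zab over MYC and over Zab, 0.0737 for MYC over Zab and 0.66 for the interaction, with 0.256% higher in MYC_Zab over WT. Without the Zab libraries in the fit, an alternative chosen after seeing the data, MYC_Zab over WT gave 0.261% higher; a fit without the MYC_Zab libraries, also chosen then, kept the percentages and medians of the other comparisons within these bounds, and lost the calls of LPP in MYC over WT (adjusted p = 0.0521 by limma) and CDH13 in Zab over WT (0.0523).

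Leaving out 1 library at a time, the percentage higher ran from 8.03 to 13.4 in MYC over WT and from 0 to 0.244 in MYC_Zab over WT, and the percentage lower from 7.90 to 13.8 in MYC_Zab over MYC and from 4.48 to 7.02 in MYC_Zab over Zab. The medians ran from -0.28 to -0.24 in MYC over WT, -0.41 to -0.33 in Zab over WT, 0.0025 to 0.0196 in MYC_Zab over WT, 0.19 to 0.25 in MYC_Zab over MYC, 0.0905 to 0.12 in MYC over Zab and 0.54 to 0.60 in the interaction. Over single genes, 167 calls were lost and 53 gained under some alternative. A further 3572 values kept their state, called in both fits or called in neither.

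With the replicate block, MYC over WT gave 12.3% higher and 30.9% lower, and Zab over WT 7.18% and 37.7%. The numbers did not pair the libraries, and no named gene's call changed with the block.

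In the whole promoter window, the shares for the tested members against all tested genes were 6.21% against 9.38% for CACGTG, 25.3% against 26.7% for CGCGCG and 4.28% against 2.37% for the CA or TG run.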
